A study of Arabidopsis thaliana with 22 samples.

Results

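Chloroplast-encoded genes were taken as every locus of the leaf count table whose identifier begins with ATCG, and the table held 117 of them among 23318 genes. The libraries were made from leaves of 3-week-old Arabidopsis thaliana plants grown in soil, 2 from OXAITF1 plants, which overexpress AITF1, and 2 from wild-type (WT) Col-0 plants. They are 4 of the 22 libraries of a study of paired trihelix transcription factors in plant defence. The OXAITF1 leaves carry the overexpression genotype and the WT leaves no added gene, and both came from the same growth conditions with no treatment in the labels. Neither the promoter of the transgene nor the number of independent lines is stated in the labels. The labels do not say that replicates came from separate plants or harvests, so p-values measure only the spread between these libraries.

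The chloroplast genome carries core subunits of the photosystems, the cytochrome b6f complex, ATP synthase and the NDH complex, the large subunit of Rubisco, and part of the plastid ribosome and RNA polymerase. These genes are transcribed by a bacterial-type polymerase that is encoded in the plastid and guided by nuclear-encoded sigma factors, and by phage-type polymerases encoded in the nucleus, mostly into transcripts that span several genes. A poly(A) tail in plastids marks RNA for decay, so the plastid RNA a library holds depends on how RNA was selected, and that step is not given in the sources used here.

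Neither the count table nor the reference annotation pairs these identifiers with gene names directly. Names are given to 6 of the 117, because notes on related nuclear genes cite the ATCG identifier and the nuclear gene's sequence matched 1 gene of the RefSeq chloroplast genome (build TAIR10.1). The counts were made on TAIR10, per the submitters' processing notes, and the positions here are those of RefSeq. The 6 are cemA, an envelope membrane protein (ATCG00530, Pltd:60741-61430, plus strand, between ycf4 and petA), ndhJ and ndhK, subunits of the NDH complex (ATCG00420, Pltd:48677-49153, and ATCG00430, Pltd:49257-49934, both on the minus strand, 103 bases apart), rpl20, a protein of the large ribosomal subunit (ATCG00660, Pltd:68512-68865, minus strand), clpP, the catalytic subunit of the Clp protease (ATCG00670, Pltd:69910-71882, minus strand, in 3 coding parts), and rpl2, also of the large ribosomal subunit (ATCG01310). The gene rps12 lies between rpl20 and clpP, and psbB lies beyond clpP on the other strand. For rpl2 the reference holds 2 copies, at Pltd:84337-85843 on the minus strand and Pltd:152806-154312 on the plus strand, which are identical in 1507 of 1507 bases, so its counts cannot be assigned to a copy. The first 60 coding bases of 4 of the matched RefSeq genes are shown. They mark the RefSeq gene meant by each name, while its link to the ATCG identifier rests on the nuclear gene's note and match. In the results below, cemA fell in OXAITF1 leaves, while rpl20, clpP and rpl2 were not called. Capitals mark the start codon. The stretches lie at Pltd:60741-60800 on the plus strand (cemA), Pltd:68806-68865 (rpl20) and Pltd:71823-71882 (clpP) on the minus strand, and, for rpl2, at Pltd:85784-85843 on the minus strand and Pltd:152806-152865 on the plus strand.
cemA: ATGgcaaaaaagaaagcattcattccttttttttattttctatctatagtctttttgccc
rpl20: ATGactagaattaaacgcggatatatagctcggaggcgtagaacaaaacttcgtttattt
clpP: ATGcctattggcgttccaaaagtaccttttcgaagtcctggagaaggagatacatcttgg
rpl2: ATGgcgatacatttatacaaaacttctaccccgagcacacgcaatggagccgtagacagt

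The libraries held 17342180 and 19395413 counts in OXAITF1 leaves and 15292308 and 16641940 counts in WT leaves. By library totals, 1 count was worth 0.0516 to 0.0654 CPM (counts scaled to equal library size). The CPM below are scaled with TMM factors unless library totals are named, and 1 count has another worth on that scale. AT3G11100, taken here as the AITF1 locus although neither the labels nor the reference pair the name with it, stood at 2954 and 3839 CPM in OXAITF1 leaves, against 14.4 and 14.4 CPM in WT leaves (log2 fold change 7.88, SE 0.31, edgeR adjusted p = 0.0141). A leaf identity was checked with 4 nuclear photosynthesis genes (RBCS1A, CAB2, CA1 and RCA), whose summed level was 11531 to 12324 CPM in OXAITF1 leaves and 47645 to 49634 CPM in WT leaves. All 4 fell, beside 10.4% of all genes (edgeR, TMM). The part of these 4 in the chloroplast results was not tested. The root marker RCI3 was at 0.046 to 0.194 CPM in OXAITF1 leaves and at 0 to 0.374 CPM in WT leaves.

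Chloroplast-encoded genes took a smaller part of the OXAITF1 libraries. Their counts made up 1.99% (95% exact binomial interval 1.99 to 2.00) and 2.33% (2.32 to 2.33) of all counts in the OXAITF1 libraries, against 3.12% (3.11 to 3.13) and 3.22% (3.21 to 3.23) in the WT libraries. The intervals cover counting error only, and both OXAITF1 libraries lay below both WT libraries. The mean share was 2.16% ± 0.235 in OXAITF1 leaves and 3.17% ± 0.0682 in WT leaves (SD, n = 2 each), a difference of -1.01 percentage points, or 0.681 times the WT share. An exact two-sided permutation test gave p = 0.333, which is the smallest value that 2 libraries against 2 can give. In bulk leaves, fewer chloroplasts or chloroplast-rich cells and less chloroplast RNA per cell cannot be told apart.

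The lower share did not rest on the few genes that hold most counts. The 10 with the most counts took 1.72% ± 0.158 of all counts in OXAITF1 leaves and 2.54% ± 0.0176 in WT leaves (SD, n = 2 each), 0.677 times the WT share. The remaining members took 0.441% ± 0.0772 in OXAITF1 leaves and 0.635% ± 0.0506 in WT leaves, 0.695 times the WT share. Mitochondrion-encoded genes, the other organelle set of the same table, went the other way in these libraries: 0.0484% and 0.0425% of all counts in OXAITF1 leaves, against 0.0268% and 0.0359% in WT leaves, which do not overlap (exact permutation p = 0.333, again the smallest possible). Of 40 mitochondrial genes tested, 12 rose, beside 9.36% of all genes (edgeR, TMM).

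**Figure D1:**
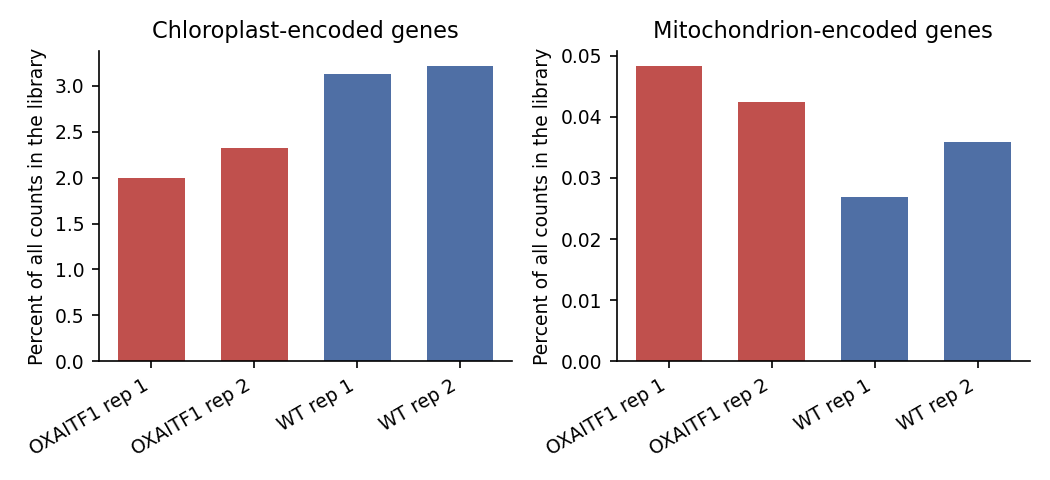
Percent of all counts in each library taken by chloroplast-encoded genes (left) and mitochondrion-encoded genes (right), as 1 bar per library on axes that start at 0. The chloroplast bars stand at 1.99% and 2.33% in OXAITF1 and at 3.12% and 3.22% in WT, and the mitochondrial bars are higher in both OXAITF1 libraries.

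Gene by gene, every call with TMM scaling was a decrease. Of the 117 chloroplast genes, 108 had enough counts to be tested, and 48 of them fell in OXAITF1 leaves, 60 were not called and 0 rose, at an adjusted p under 0.05 in edgeR's quasi-likelihood test with TMM scaling, which sets the libraries to a common level over most genes (0 were higher at an unadjusted p under 0.05 too, and 0 in DESeq2, which called 9.65% of all its genes higher). The 48 are 44.4% of those tested, beside 10.4% of all 18639 genes tested that were called lower and 9.36% that were called higher. The median log2 fold change was -0.98 over the 108 chloroplast genes (quartiles -1.29 and -0.60, range -2.15 to 0.38) and 0.05 over all genes tested. Among the 60 not called, 53 had an estimate below 0 and 7 above. The remaining 9 members held at most 31 counts in any library and 134 counts in sum over all 4 libraries. Without the filter on low counts, 0 of these 9 were called by edgeR (0 also at an unadjusted p under 0.05), and DESeq2 called 0 of them.

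The called genes had log2 fold changes between -2.15 and -0.80 (median -1.30), with adjusted p between 0.0152 and 0.0489 in edgeR, and 41 of the 48 were at least 2-fold lower in OXAITF1 leaves. Another 20 members had an adjusted p between 0.05 and 0.1. In TMM-scaled CPM both OXAITF1 libraries lay below both WT libraries in 90 of the 108, above them in 1, and the groups overlapped in 17. Over all genes tested, 32.2% had non-overlapping groups with OXAITF1 lower and 35.6% with OXAITF1 higher. In library-total CPM, OXAITF1 lay below without overlap in 73 of the members and above in 11, and the groups overlapped in 24. On that scale 16.4% of all genes tested lay below without overlap and 57.9% above. Calls were rarer among low members than among the other members. They numbered 6 of the 39 members under 10 CPM, 29 of the 45 between 10 and 100 CPM and 13 of the 24 above. The median log2 fold changes were -0.80, -1.07 and -0.98. Over all genes tested, at any level, 10.4% were called lower.

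The size of the decrease depended on how libraries were scaled, and no call was made with a single WT library. With library totals alone, which moved the median of all genes up by 0.42, 28 members fell and 1 rose (background 6.05% lower and 28.4% higher). In that fit 52 members had an unadjusted edgeR p under 0.05, and 49 of these were lower, beside 9.2% of all genes lower. The chloroplast median was -0.57, against -0.98 with TMM. Relative to the median of all genes it was -1.03 with library totals and -1.02 with TMM. A change of scaling moves all genes nearly alike, so this relative value could hardly differ between scalings. Without WT replicate 1 or without WT replicate 2, 0 of all genes (0.0%) were called by edgeR, with lowest adjusted p of 0.164 and 0.169, while 50 and 48 members were lower at an unadjusted p under 0.05, beside 10.7% of all genes in each fit, and the medians were -0.99 and -0.88. In these fits the spread came from the 2 OXAITF1 libraries alone, and the lone WT library was assumed to vary like them.

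**Figure D2:**
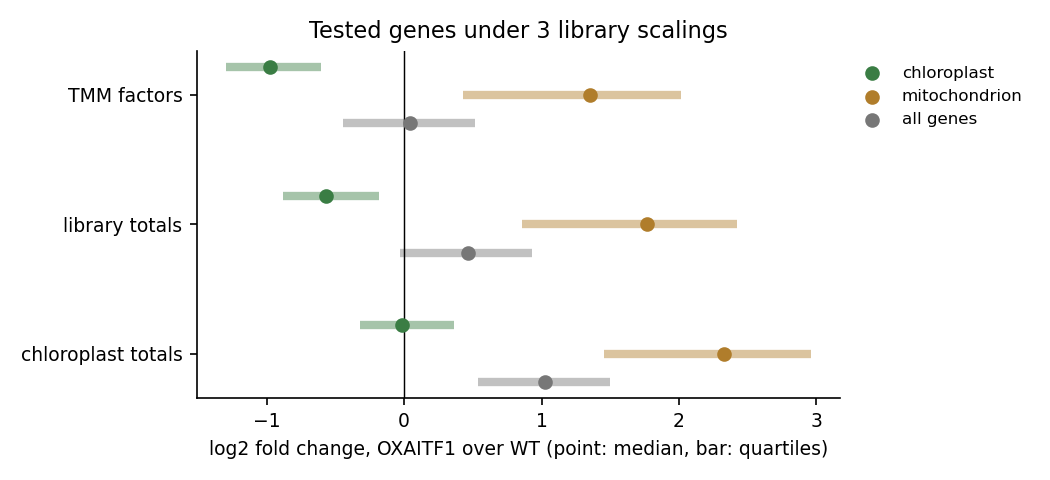
Median (points) and quartiles (bars) of log2 fold changes, OXAITF1 over WT, for tested chloroplast genes, mitochondrial genes and all genes, under TMM factors, library totals and chloroplast totals. The chloroplast median is -0.98, -0.57 and -0.02 under the 3 scalings and lies below the median of all genes in each. That gap is nearly fixed by construction, since a change of scaling moves all genes nearly alike.

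**Figure D3:**
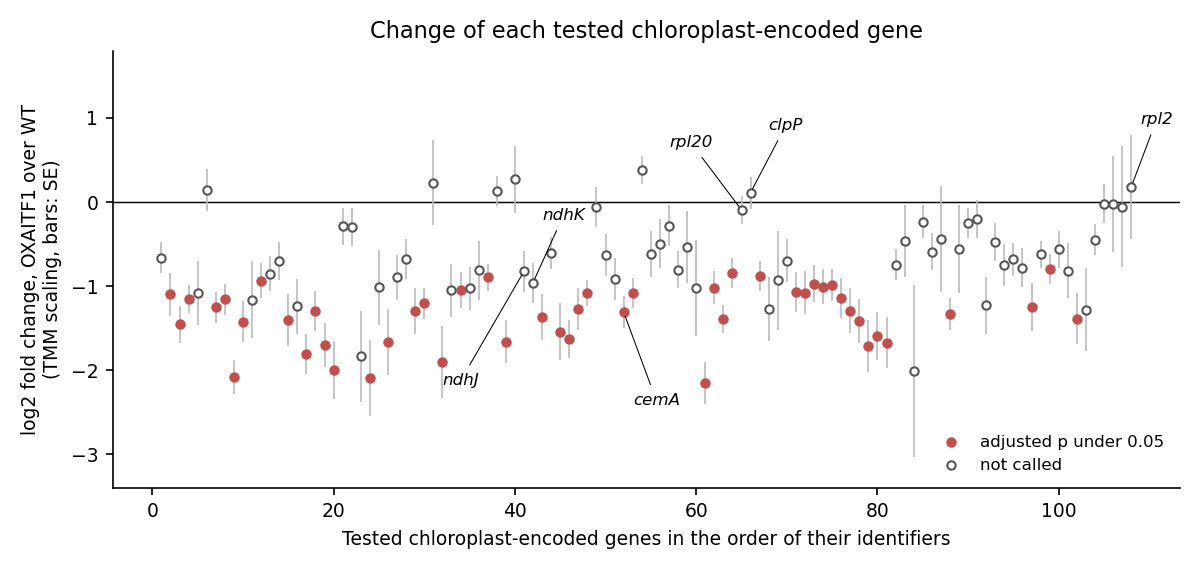
Log2 fold change (OXAITF1 over WT, TMM scaling, bars are SE) of each of the 108 tested chloroplast genes, in the order of their identifiers; filled points passed an adjusted p under 0.05. All 48 filled points lie below 0, and rpl20, clpP and rpl2 lie near 0.

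Both OXAITF1 libraries were low, but not equally. Set against the WT mean, the median member stood at -1.20 on the log2 scale in OXAITF1 replicate 1, with 105 of 108 below the WT mean, and at -0.82 in OXAITF1 replicate 2, with 97 below. Replicate 2 was higher than replicate 1 in 90 of the 108 members, and its chloroplast share was 1.17 times as high, while the WT shares differed by a factor of 1.03. Leaving out OXAITF1 replicate 1 gave a median log2 fold change of -0.81 over the members, and leaving out OXAITF1 replicate 2 gave -1.24. In these fits the spread came from the 2 WT libraries alone, and the lone OXAITF1 library was assumed to vary like them.

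Among the named members, cemA had the lowest log2 fold change. It stood at 31.1 and 37.7 CPM in OXAITF1 leaves, against 76.1 and 94.5 CPM in WT leaves. The groups lay well apart, and the log2 fold change was -1.31 (SE 0.19, edgeR adjusted p = 0.0207). With library totals cemA was still called (-0.89, adjusted p = 0.0221).

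The NDH genes ndhK and ndhJ, neighbours on the same strand, had close values. For ndhK there were 418 and 515 CPM in OXAITF1 leaves and 777 and 1038 CPM in WT leaves. For ndhJ there were 252 and 281 CPM in OXAITF1 leaves and 379 and 564 CPM in WT leaves. Neither gene's groups overlapped, and neither passed the threshold in edgeR, with log2 fold changes of -0.96 (SE 0.24, adjusted p = 0.0545) and -0.82 (SE 0.25, adjusted p = 0.0803). DESeq2 called both, with adjusted p of 0.00293 and 0.0196, and 11.5% of all genes lower.

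The 3 other named members showed no detectable change with TMM scaling. The gene clpP had 124 and 162 CPM in OXAITF1 leaves and 126 and 139 CPM in WT leaves, and rpl20 had 14.4 and 14.9 CPM in OXAITF1 leaves and 14.2 and 17.2 CPM in WT leaves. The libraries of both groups overlapped in both genes, with log2 fold changes of 0.11 (SE 0.19, edgeR adjusted p = 0.706) and -0.09 (SE 0.17, edgeR adjusted p = 0.720). With library totals their log2 fold changes were 0.52 and 0.32, and neither gene was called. For rpl2 the WT libraries disagreed: it had 400 and 530 CPM in OXAITF1 leaves and 180 and 641 CPM in WT leaves (log2 fold change 0.18, SE 0.62, edgeR adjusted p = 0.853). That 3.48-fold gap between WT replicates was the largest among the 69 members with at least 100 counts in every library, where the next was 1.54-fold.

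Levels of different genes were compared per kilobase of coding sequence. For rpl2 the coding length of 1 copy was used, although its counts may come from either of 2 copies. The multi-mapping setting is not given, so its place among the other genes is uncertain. In OXAITF1 leaves ndhK had 688 ± 102 CPM per kilobase, rpl2 564 ± 111 and ndhJ 559 ± 42.3, and these 3 did not differ beyond their spread (SD, n = 2 each). Below them came clpP at 242 ± 45.5, and then cemA at 49.8 ± 6.73 and rpl20 at 41.5 ± 1.03. In WT leaves ndhK had 1338 ± 272, ndhJ 989 ± 274, rpl2 497 ± 395, clpP 224 ± 16.7, cemA 124 ± 18.9 and rpl20 44.3 ± 5.91 CPM per kilobase. In WT leaves ndhK and ndhJ did not differ beyond their spread, and the spread of rpl2 overlapped with those of ndhJ, clpP and cemA.

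**Figure D4:**
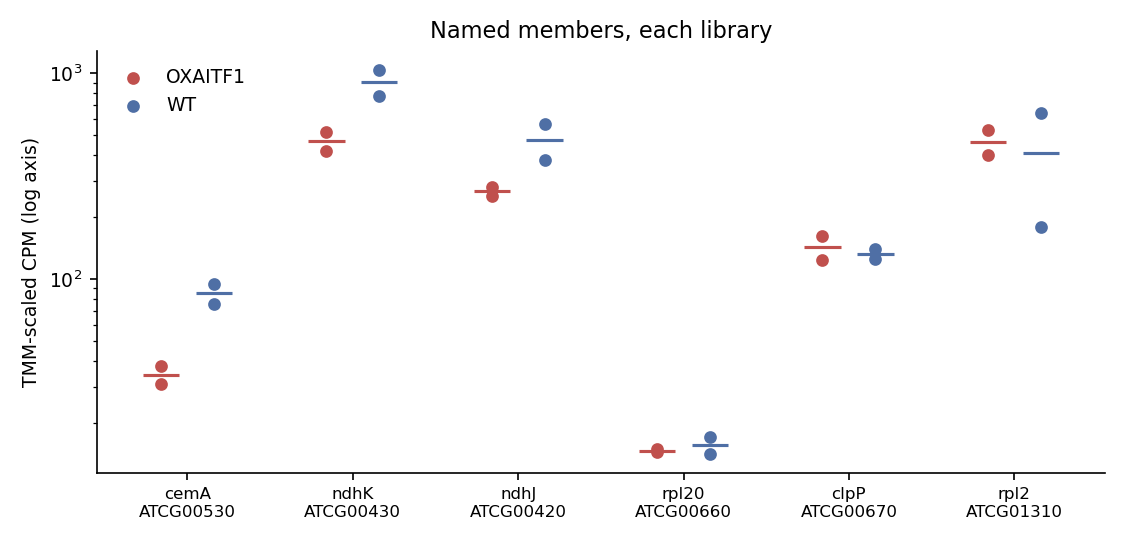
TMM-scaled CPM (log axis) of the 6 named chloroplast genes, with 1 point per library, OXAITF1 left of WT, and a line at each group's mean. OXAITF1 points lie below WT points for cemA, ndhK and ndhJ and overlap with them for clpP, rpl20 and rpl2, whose WT points are 180 and 641 CPM.

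Of the members with no name in the sources used here, 4 are given by identifier, chosen after their values were seen. ATCG00480, the member with the most counts, had 4076 and 4008 CPM in OXAITF1 leaves and 9296 and 10241 CPM in WT leaves, and it fell by 1.27 on the log2 scale (SE 0.25, edgeR adjusted p = 0.0339). ATCG00620 had the lowest log2 fold change of all tested members, with 7.48 and 11.7 CPM in OXAITF1 leaves and 42.1 and 43.2 CPM in WT leaves (-2.15, SE 0.25, edgeR adjusted p = 0.0164). In both, the OXAITF1 libraries lay far below the WT libraries. At the other end, ATCG00550 had 30.1 and 38.4 CPM in OXAITF1 leaves and 26.6 and 25.9 CPM in WT leaves. In TMM-scaled CPM it was the 1 tested member whose OXAITF1 libraries both lay above the WT libraries. It was called with library totals (0.79, edgeR adjusted p = 0.0244) but not with TMM (0.38, SE 0.17, edgeR adjusted p = 0.174). ATCG01020, with the third highest mean over the 4 libraries (rank 2 in OXAITF1 leaves and rank 3 in WT leaves), had 2623 and 3101 CPM in OXAITF1 leaves and 3333 and 3245 CPM in WT leaves, and was not called (-0.20, SE 0.22, edgeR adjusted p = 0.550).

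Members changed unequally in their share of the chloroplast counts. Shares sum to a fixed total, so that a larger share of some members goes with a smaller share of others by construction. As a share of all ATCG counts, the OXAITF1 libraries both lay above the WT libraries in 37 of the 108 members and below in 30, and the groups overlapped in 41. Per chloroplast count, 77.2% of all genes tested lay above without overlap and 6.36% below. With the chloroplast total as library size, edgeR called 10 members higher (log2 fold changes 0.67 to 1.34) and 10 lower (-1.20 to -0.65), beside 58.2% of all genes higher and 2.39% lower. The 10 lower members were all called lower with TMM too, and none of the 10 higher members was called with TMM. Both fits use the same counts and differ by a nearly constant shift, so these overlaps are no independent check.

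Of the named genes, clpP and rpl20 were called higher per chloroplast count and none was called lower. The gene clpP held 0.739% and 0.782% of chloroplast counts in OXAITF1 leaves, against 0.352% and 0.370% in WT leaves (log2 fold change per chloroplast count 1.08, SE 0.18, edgeR adjusted p = 0.00635). The gene rpl20 held 0.0859% and 0.0721% in OXAITF1 leaves and 0.0398% and 0.0455% in WT leaves (0.89, SE 0.25, edgeR adjusted p = 0.0234). Both genes held a larger share without overlap. For rpl2 the shares were 2.38% and 2.56% in OXAITF1 leaves and 0.504% and 1.70% in WT leaves, which missed the threshold (1.16, SE 0.53, edgeR adjusted p = 0.0989). By contrast, ndhK held 2.49% and 2.49% in OXAITF1 leaves and 2.18% and 2.75% in WT leaves. Its groups overlapped, as did those of ndhJ, with log2 fold changes per chloroplast count of 0.01 and 0.16. The share of cemA was 0.185% and 0.182% in OXAITF1 leaves and 0.213% and 0.251% in WT leaves, and it was not called (-0.34, edgeR adjusted p = 0.172).

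Of the 4 unnamed members, ATCG01020 took 15.6% and 15.0% of chloroplast counts in OXAITF1 leaves, against 9.34% and 8.62% in WT leaves (log2 fold change 0.77, edgeR adjusted p = 0.0110). ATCG00550 took 0.179% and 0.185% in OXAITF1 leaves, against 0.0745% and 0.0689% in WT leaves (1.34, edgeR adjusted p = 0.00457). ATCG00620 took 0.0446% and 0.0563% in OXAITF1 leaves, against 0.118% and 0.115% in WT leaves (-1.20, edgeR adjusted p = 0.00816). ATCG00480 took 24.3% and 19.3% in OXAITF1 leaves and 26.1% and 27.2% in WT leaves, which was not called (-0.29, edgeR adjusted p = 0.206). Since these 4 were chosen after their values were seen, their adjusted p-values are descriptions only. In this fit 58.2% of all genes were called higher and 2.39% lower.

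**Figure D5:**
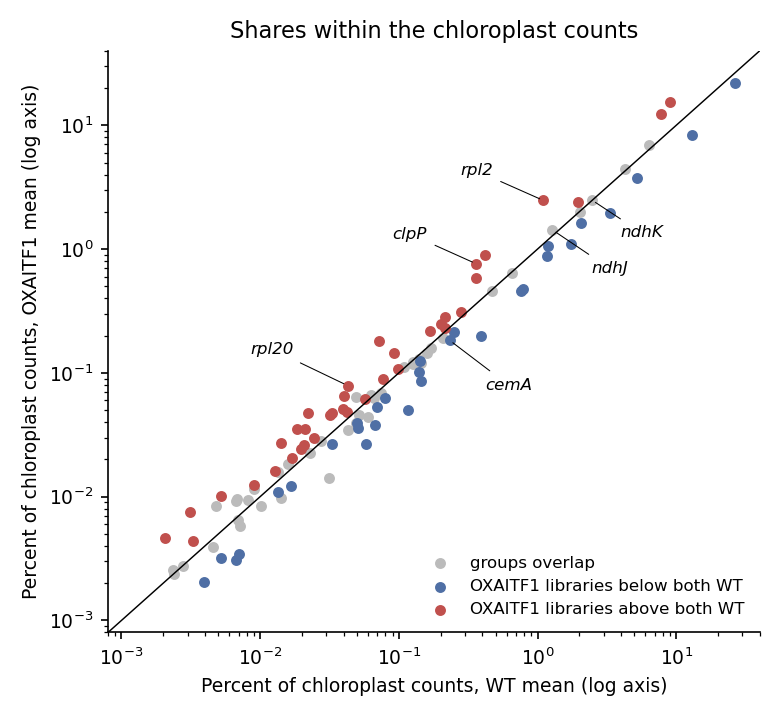
Percent of chloroplast counts held by each tested chloroplast gene, OXAITF1 mean against WT mean (both log axes, n = 2 libraries each), coloured by whether the OXAITF1 libraries lie above, below or overlap with the WT libraries. Members above the diagonal, such as clpP, rpl20 and rpl2, hold a larger share in OXAITF1 leaves. Without overlap, 37 of the 108 lie above and 30 below, beside 77.2% and 6.36% of all genes tested per chloroplast count.

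Counts were spread unevenly over the genes in both genotypes. The 3 members with the most counts in each genotype held 52.2% and 46.7% of chloroplast counts in OXAITF1 leaves and 48.9% and 48.5% in WT leaves. The 10 with the highest mean over the 4 libraries held 80.6% and 78.7% in OXAITF1 leaves and 80.8% and 79.2% in WT leaves. Of these 10, 4 fell, beside 10.4% of all genes (edgeR, TMM), with log2 fold changes over the 10 from -1.71 to -0.20. The median member stood at 13.8 CPM, 24 members were at or above 100 CPM and 14 were under 1 CPM.

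Some nuclear genes that serve plastid gene expression fell. Of 33 listed genes for plastid transcription and RNA handling, all tested, 12 fell, 1 rose and 20 were not called (edgeR, TMM; 10.4% of all genes lower and 9.36% higher), and their median log2 fold change was -0.70. With library totals alone, 7 fell and 2 rose (6.05% and 28.4% of all genes), and with chloroplast totals 3 fell and 8 rose (2.39% and 58.2%). The lowest were CRB (CSP41B), CSP41A and PTAC7. CRB and CSP41A encode chloroplast RNA-binding proteins, and PTAC7 a protein of the transcriptionally active plastid chromosome. CRB had 154 and 166 CPM in OXAITF1 leaves and 778 and 884 CPM in WT leaves (log2 fold change -2.38, SE 0.18, edgeR adjusted p = 0.0141). PTAC7 averaged 22.0 ± 2.96 CPM in OXAITF1 leaves and 95.5 ± 2.88 CPM in WT leaves (-2.12, SE 0.16, edgeR adjusted p = 0.0141), and CSP41A averaged 215 ± 28.1 CPM in OXAITF1 leaves and 844 ± 56.3 CPM in WT leaves (-1.97, SE 0.19, edgeR adjusted p = 0.0153; SD, n = 2 each).

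Among the 6 sigma factors, SIG2 fell by 1.36 on the log2 scale (57.4 ± 11.6 CPM in OXAITF1 leaves and 147.6 ± 0.107 CPM in WT leaves, edgeR adjusted p = 0.0206). SIGF fell by 1.22 (56.6 ± 4.29 CPM in OXAITF1 leaves and 132 ± 7.42 CPM in WT leaves, edgeR adjusted p = 0.0169; SD, n = 2 each). The other 4 were not called. SIGA had 125 and 64.3 CPM in OXAITF1 leaves and 204 and 236 CPM in WT leaves, and SIGE had 61.9 and 9.43 CPM in OXAITF1 leaves, on either side of 16.7 and 18.9 CPM in WT leaves. MRL1, which stabilises the transcript of the Rubisco large subunit, fell by 1.19 (edgeR adjusted p = 0.0170). Of the phage-type polymerase genes in the list, SCA3 (RPOTp) was not called (0.19, edgeR adjusted p = 0.397), while AT5G15700 (RPOTmp) rose. AT5G15700, annotated in the reference only as a DNA/RNA polymerase superfamily protein, was the 1 gene of the list that rose. It had 14.5 and 14.6 CPM in OXAITF1 leaves and 6.72 and 7.45 CPM in WT leaves (1.04, SE 0.17, edgeR adjusted p = 0.0258). The called genes with the smallest decreases were RNEE/G (-0.84, edgeR adjusted p = 0.0258) and AT5G08720 (-0.61, edgeR adjusted p = 0.0444), and neither was called with library totals.

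Most nuclear-encoded partner subunits of the same complexes fell. Of 33 listed subunits of the photosystems, cytochrome b6f, ATP synthase, Rubisco and NDH complexes, all tested, 29 fell, 0 rose (0 also at an unadjusted p under 0.05, and 0 in DESeq2) and 4 were not called, beside 10.4% of all genes lower, with a median log2 fold change of -1.43 beside -0.98 over the chloroplast-encoded genes. No test was made of that difference. The Rubisco small subunit genes RBCS1B and RBCS3B had log2 fold changes of -2.70 and -2.32, and RBCS1B averaged 81.4 ± 11.3 CPM in OXAITF1 leaves and 528 ± 99.5 CPM in WT leaves (edgeR adjusted p = 0.0144). The ATP synthase delta subunit gene ATPD had 241 and 262 CPM in OXAITF1 leaves and 1142 and 1176 CPM in WT leaves (-2.20, edgeR adjusted p = 0.0141). The smallest called decreases were those of PSBQ-2 (-1.18), PSBO1 (-1.16) and PSAH-1 (-0.97), of which PSBO1 and PSAH-1 were not called with library totals (edgeR adjusted p = 0.0506 and 0.0590). The NDH partners NdhL and NdhN fell by 1.40 and 2.02, while NdhM and NdhO were not called (-1.15 and -0.49), and neither were PSBR and PSAE-2.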

How the data were processed

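RNA-seq gene counts were analysed for 2 OXAITF1 and 2 WT leaf libraries. Per the submitters' processing notes, reads were aligned with HISAT2 2.1.0 to TAIR10 and counted with featureCounts (Subread 1.6.5); the deposited values are whole-number counts per gene, with no normalization. Strand and multi-mapping settings are not given in those notes, nor is the RNA selection step. The 4 per-library files equal the deposited table, and replicates differed by more than counting noise.

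The whole leaf table was fitted with edgeR 4.0.16 in R 4.3.3 (filterByExpr, TMM factors, quasi-likelihood test, 2 residual degrees of freedom, Benjamini-Hochberg over all genes tested, called at an adjusted p under 0.05). CPM in the text are TMM-scaled unless library totals are named. The SE of an edgeR log2 fold change was derived as its absolute value over the square root of the quasi-likelihood F statistic. TMM factors were 1.19 and 1.12 in OXAITF1 and 0.876 and 0.855 in WT libraries. Alternatives were other scalings and filters, DESeq2 1.42.0, a replicate block and leaving out each library. The seedling table has 0 ATCG loci among its 33318 genes and was not used.

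Members and gene lists were chosen with earlier results of these data known. The naming rule was the 2 most abundant members of each role class, a fixed list of genes and the members with the highest and lowest fold changes; since 111 of the 117 identifiers are not named here, the 6 named members and 4 identifiers are given instead. In the nuclear lists it was the 3 called genes with the lowest and the 3 with the highest log2 fold change; the sigma factors, MRL1, SCA3 and the NDH subunits were added after their values were seen. Names came from BLAST+ 2.17.0 matches of nuclear genes to the RefSeq TAIR10.1 chloroplast genome.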

Additional observations from a re-analysis of the deposited data

How the results depend on the processing

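Chloroplast genes called lower numbered 48 in the reported fit, 28 with library totals alone, 10 with chloroplast totals as library size, 0 with the replicate block and 0 to 67 when 1 library was left out. Those called higher numbered 0, then 1, 10, and 0 to 2 with 1 library left out. Genes for plastid gene expression called lower numbered 12, then 7, 3, 0 with the block and 0 to 23; those called higher 1, then 2, 8, 0 with the block and 0 to 2. Partner subunits called lower numbered 29, then 18 with chloroplast totals, 0 with the block and 0 to 33. Of all genes tested, 10.4% were lower in the reported fit, 6.05% with library totals, 2.39% with chloroplast totals and 0.0% with the block. The shares called higher were 9.36%, 28.4%, 58.2% and 0.0%. These shares changed with 1 library left out too, so counts from different fits are not directly comparable. The 8 higher genes for plastid gene expression thus stand beside 58.2% of all genes, and the 18 lower partners beside 2.39%. The chloroplast median log2 fold change was -0.98, then -0.57 with library totals, -0.02 with chloroplast totals and -1.24 to -0.81 with 1 library left out. With chloroplast totals the direction turned for rpl20 (0.89), ATCG01020 (0.77), RNEE/G (0.13) and AT5G08720 (0.37), and for ndhJ (0.16) and ndhK (0.01), which passed no threshold in either fit; by construction, that scaling removes a change shared by the chloroplast genes. Other causes were not tested.

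DESeq2 gave 55 lower chloroplast genes, of which 47 were among the 48, RLE factors 48, TMM factors from nuclear genes 48, no filter 47 and a filter at 1 CPM 49, where 7.87% to 11.5% of all genes were lower; all gave 0 higher chloroplast genes. Without WT replicate 1 or 2, edgeR called 0 of all genes, while 12 and 13 genes of the plastid gene expression list and 24 and 22 partner subunits were lower at an unadjusted p under 0.05, beside 10.7% of all genes in each fit. Replicate numbers are shared by both genotypes, but deviations of same-numbered libraries correlated at -0.087, so the numbers are not taken as pairs. Under the block 0 of all genes were called, the lowest adjusted p was 0.0527, and 68 chloroplast genes, 17 of the expression list and 31 partners had an unadjusted p under 0.05 and were lower, beside 16.3% of all genes. The share difference was -1.07 points per 100 nuclear counts and -1.18 to -0.85 with 1 library left out. Shares of protein-coding members alone, and without the inverted repeat, were not run, because the sources used here give no such annotation for the identifiers. Members under 10 CPM and a design of 2 against 2 limit what could be called.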

Other observations

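Chloroplast genes next to each other in identifier order had closer values than neighbouring nuclear genes. The 6 named identifiers lie in the same order as their positions in the chloroplast genome, which is the ground for reading identifier order as map order. The log2 fold changes (TMM) of neighbouring tested members had a median absolute difference of 0.36 over 107 pairs, against 0.71 to 0.81 on the nuclear chromosomes and 0.73 for the mitochondrial genes. The spread of values in each set differs too, and the correlation between neighbours was 0.19 over the chloroplast pairs, 0.067 to 0.11 over those of the nuclear chromosomes and 0.37 over the mitochondrial pairs. These are descriptions over genes that share libraries and often a transcript.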
